A study of Homo sapiens with 12 samples.

Results

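The clustered histone genes are the rows of the deposited expression table whose symbol starts with HIST1H, HIST2H, HIST3H or HIST4H, and they make up 71 of its 26125 rows. By the class in the symbol, 6 rows belong to linker histone H1, 17 to H2A, 20 to H2B, 13 to H3 and 15 to H4. Among them HIST1H2APS1 of class H2A, and HIST2H2BA and HIST2H2BC of class H2B, are annotated as pseudogenes and are counted as members. By the loci the table gives on hg19, cluster 1 on chromosome 6 falls into a first block of 35 members and a second block of 21 members. Cluster 2 on chromosome 1 has 11 members, cluster 3 on the same chromosome has 3, and cluster 4 on chromosome 12 is the single gene HIST4H4. RNA was sequenced from Caco-2, a line established from a human colon tumour whose cells take on features of enterocytes, after 21 days of culture on transwell inserts. There were 4 groups of 3 libraries. The combined group received ochratoxin A (OTA), a fungal toxin, together with Bacillus subtilis CW14, the OTA group received OTA alone at 15 µmol/L in the apical chamber, the CW14 group received the bacterium alone, and the control group received neither. All groups were kept in a HEPES-containing salt solution (HBSS) as transport buffer, and OTA was at 15 µmol/L in both OTA groups. The exposure time is not given in the sources used here. Nothing in the labels says that replicates were separate cultures, so p-values measure the spread between these libraries, which may be technical. The line is a tumour line grown without other cell types, which limits it as a model of gut epithelium.

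Histones H2A, H2B, H3 and H4 form the core around which nuclear DNA is wound, and H1 binds the DNA where it enters and leaves that core. Most histone protein is made in S phase from clustered, intronless genes, whose messenger RNAs end in a conserved stem-loop in place of a poly(A) tail. The stem-loop-binding protein SLBP binds that structure and takes part in 3′ end formation, translation and decay of the RNA. Some clustered genes also give rise to polyadenylated RNA, which is described above all in differentiated cells, and monolayers of Caco-2 differentiate after they reach confluence.

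The stem-loop was searched for in the GENCODE release 29 transcripts of all 71 members and was found in 31. It comprises 16 bases, and the commonest form, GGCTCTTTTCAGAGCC, was present in 15 members of classes H2A, H2B and H3. For 23 members an annotated transcript runs 100 bases or more past the stem-loop, for 8 it ends near it, and for 40 no stem-loop lies in the annotated transcript. Some of those annotated transcripts end at the coding sequence, so the 40 genes are not read as lacking a stem-loop. The segments below show the stem-loop in capitals for 3 members that were higher with OTA and 3 that were lower in some comparison. Coordinates are GRCh38. The HIST2H3A segment is chr1:149853100-149853125 (forward strand). The HIST1H2AI segment is chr6:27808642-27808667 (forward strand). The HIST1H2BE segment is chr6:26184205-26184226 (forward strand). The HIST1H2BC segment is chr6:26123467-26123492 (reverse strand). The HIST3H2A segment is chr1:228457364-228457389 (reverse strand). The HIST1H4B segment is chr6:26026896-26026921 (reverse strand).
HIST2H3A: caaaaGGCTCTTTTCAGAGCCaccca
HIST1H2AI: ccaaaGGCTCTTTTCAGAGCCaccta
HIST1H2BE: ccaaaGGCTCTTTTCAGAGCCa
HIST1H2BC: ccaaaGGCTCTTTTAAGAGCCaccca
HIST3H2A: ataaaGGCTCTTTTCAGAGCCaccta
HIST1H4B: ccaatGGCCCTTTTCAGGGCCgccca

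Core histone genes of one class are much alike, which bears on how fragments can be assigned to them. Between coding sequences of equal length, identity ranged over 77.7% to 92.8% for 67 H2A pairs, 84.7% to 93.9% for 105 H2B pairs, 80.9% to 97.1% for 78 H3 pairs and 79.0% to 100.0% for 91 H4 pairs. The identical pairs were HIST1H4J with HIST1H4K and HIST2H4A with HIST2H4B. Coding windows of 150 bases, the length of a read, were compared only with GENCODE genes whose symbol starts with HIST. Of 68 members with an annotated coding sequence, 11 share at least 1 window with another such gene, and for 6 of them every window is shared. HIST1H2AI and HIST1H2AJ share 75.9% and 77.9% of their windows with each other, so values of these 2 genes are not independent. HIST1H2AM shares 81.7% of its windows with a transcript annotated to HIST1H3J, and HIST1H2AL shares none with another gene so named. Sharing with genes of other names was not examined. The stretches below cover coding bases 61 to 120 of H2A members from the second block of cluster 1 and of HIST1H2AE from the first block. Capitals mark bases that differ from HIST1H2AL, and coordinates are GRCh38. The HIST1H2AL stretch is chr6:27865415-27865474 (forward strand). The HIST1H2AM stretch is chr6:27893030-27893089 (reverse strand). The HIST1H2AI stretch is chr6:27808270-27808329 (forward strand). The HIST1H2AJ stretch is chr6:27814621-27814680 (reverse strand). The HIST1H2AE stretch is chr6:26217035-26217094 (forward strand).
HIST1H2AL: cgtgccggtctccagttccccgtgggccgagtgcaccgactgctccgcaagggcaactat
HIST1H2AM: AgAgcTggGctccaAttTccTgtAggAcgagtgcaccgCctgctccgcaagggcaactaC
HIST1H2AI: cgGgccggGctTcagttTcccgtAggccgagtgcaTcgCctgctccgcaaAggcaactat
HIST1H2AJ: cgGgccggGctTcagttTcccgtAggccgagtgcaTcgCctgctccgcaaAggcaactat
HIST1H2AE: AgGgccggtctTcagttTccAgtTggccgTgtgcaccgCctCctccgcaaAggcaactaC
Over the whole coding sequence of 390 bases, HIST1H2AM differs from HIST1H2AL at 39 bases, HIST1H2AI at 34 and HIST1H2AE at 64.

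Values are FPKM, fragments scaled by transcript length and by the number of fragments mapped in the library. Genes averaging at least 1 FPKM over the 12 libraries were tested with limma on log2(FPKM + 1), and p-values were adjusted by the Benjamini-Hochberg method over all 12928 genes tested. Because of the added 1, changes of genes with low FPKM appear smaller than they are. A gene is called higher or lower at an adjusted p under 0.05. Of the 71 members, 58 passed the filter and 13 did not. For 4 of the 58, HIST1H1T, HIST1H2BM, HIST1H4A and HIST2H2AB, the control and CW14 libraries averaged under 1 FPKM, so these passed only through the groups that received OTA and are selected towards a difference. They are included in the counts and medians of tested members, which are also given without them where they change a count. Among the 13 untested members, HIST1H2AA, HIST1H2APS1 and HIST1H2BA were listed at 0 in every library. HIST1H2AA and HIST1H2BA are known as testis-expressed genes, and HIST1H2APS1 is annotated as a pseudogene. The highest single value of an untested member was 3.26 FPKM, for HIST1H3A, an H3 gene named after its values were seen, in combined replicate 3. Just outside the filter HIST1H3A averaged 0.496 FPKM, and the lowest tested member averaged 1.08 FPKM.

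Absolute depth is unknown because the table holds no counts. The steps between low values put the libraries' relative depth at 0.642, 0.672 and 0.471 in the combined group, 1.60, 0.658 and 1.16 in the OTA group, 0.894, 0.775 and 0.853 in the CW14 group and 1.00, 1.58 and 0.911 in the control group, with control replicate 1 set to 1. Combined replicate 3 was the shallowest library and stood apart, with a residual SD of 0.588 log2 units against 0.305 to 0.424 in the other libraries. Of 12 enterocyte markers, 11 averaged at least 1 FPKM, and APOA1, an apolipoprotein of enterocytes and liver cells, reached 19185 FPKM in combined replicate 3 against 7219 and 5364 FPKM in the other combined libraries. Of 13 markers of fibroblasts, immune and endothelial cells, 5 averaged at least 1 FPKM, and COL1A2, DCN and PTPRC were among those at 0 in all libraries. The summed level of those 13 markers was 98.6 to 129 FPKM in the combined group, 165 to 202 in the OTA group, 95.7 to 126 in the CW14 group and 118 to 154 in the control group. Their part in the results was not tested. In bulk RNA, fewer cells of a kind, such as cycling cells, and less RNA per cell cannot be told apart.

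Histone expression in these monolayers was concentrated in few genes. Over the 12 libraries HIST2H2AA3 (H2A) averaged 243 FPKM, HIST1H1C (H1) 161, HIST1H2BK (H2B) 121, HIST3H2A (H2A) 100.2 and HIST1H2BD (H2B) 96.5, and these 5 held 47.5% of the summed FPKM of all members. HIST2H2AA3 has a near-identical copy, HIST2H2AA4, with which it shares every window, and the table has no row for that copy. The deposited locus of HIST1H2BK spans 8568 bases and is shared with HIST1H4I, and that of HIST1H2BD spans 13230 bases. What was counted for these 2 is therefore uncertain. The most abundant H4 genes were HIST1H4C at 45.9 FPKM and HIST1H4E at 21.5 FPKM. Class H3 had no comparable gene: its 2 highest members, HIST2H3A and HIST1H3H, averaged 13.36 and 13.01 FPKM. H2A and H2B genes supplied 37.3% and 34.8% of the sum, H1 genes 12.8%, H4 genes 10.3% and H3 genes 4.79%. A list of 10 members with a described polyadenylated transcript held 60.3% of the sum, with the other 61 members at 39.7%.

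OTA without CW14 raised 12 histone genes, 5 of them H2A genes, and lowered 1, the H2B gene HIST1H2BC. None of the 12 was among the 10 most abundant members. In OTA against control, 12 of 58 tested members were called higher and 1 lower, where 4.82% of all genes tested were called higher and 12.9% lower. The median log2 difference of the 58 was 0.69, against 0.03 over all genes tested. Without the 4 members that passed only through the OTA groups, 10 of 54 were called higher and 1 lower, with a median of 0.67. Of the 12 genes called higher, 5 encode H2A, 4 H2B, 1 H1, 1 H3 and 1 H4. In 26 members all OTA libraries lay above all control libraries, with 24.4% of all genes tested doing so, and in 3 members all lay below, with 25.7% of all genes. Leaving out combined replicate 3, which enters this comparison through the shared estimate of spread and the filter, left 57 members tested. That fit called 19 members higher and 2 lower, with 1900 and 2476 of the 12890 genes then tested. Leaving out control replicate 1, OTA replicate 1 or OTA replicate 2 gave 0 members lower, with 1237, 1236 and 1262 of all genes called lower in that order.

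**Figure D1:**
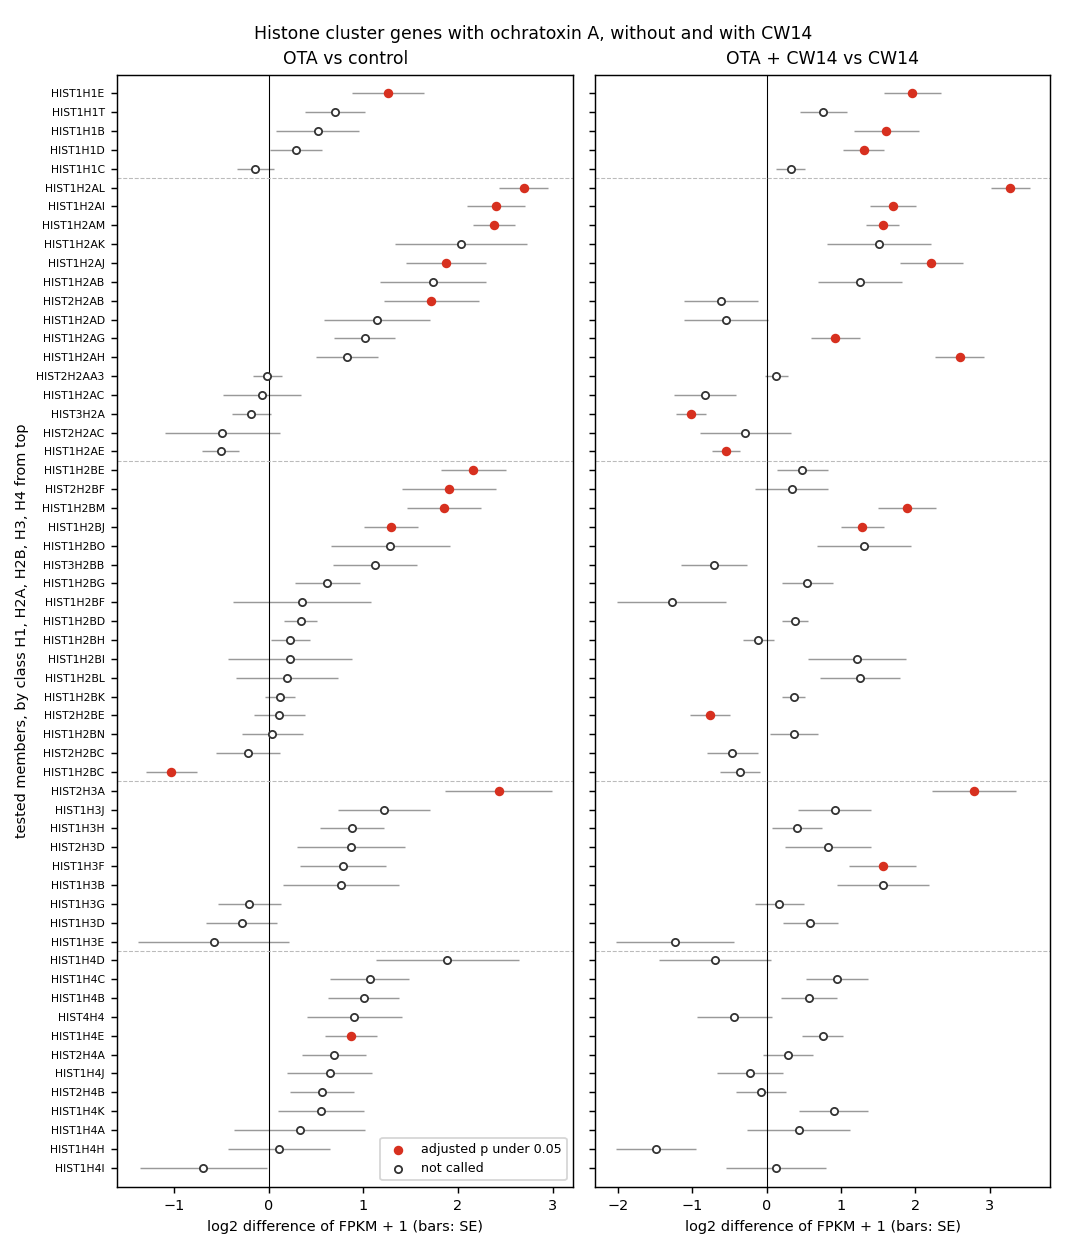
Log2 difference of FPKM + 1 (horizontal axis, bars are SE) for each of the 58 tested members, grouped by class from H1 at the top to H4 at the bottom, for OTA against control (left) and OTA + CW14 against CW14 (right). Filled points passed an adjusted p under 0.05: 12 higher and 1 lower on the left, 13 higher and 3 lower on the right, with HIST1H2AL (H2A) and then HIST2H3A (H3) at the largest positive values in both.

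Of the 5 H2A genes called higher, 4 lie in the second block of cluster 1. HIST1H2AL (hg19 chr6:27833105-27833576) stood at 25.1, 15.7 and 17.3 FPKM in the OTA libraries, against 3.19, 1.54 and 1.77 FPKM in the control libraries. Every OTA library was above every control library, and the log2 difference was 2.70 ± 0.26 (SE, n = 3 each; limma adjusted p = 2.6e-05). HIST1H2AM (hg19 chr6:27860475-27860963) stood at 51.6, 43.0 and 40.2 FPKM with OTA, against 10.4, 7.66 and 5.80 FPKM in control, a log2 difference of 2.38 ± 0.22 (limma adjusted p = 1.8e-05). HIST1H2AI had 26.2, 13.4 and 28.5 FPKM with OTA and 4.00, 4.63 and 1.78 FPKM in control, a log2 difference of 2.40 ± 0.31 (limma adjusted p = 0.00023). Its near relative HIST1H2AJ had 6.76, 5.55 and 7.94 FPKM with OTA and 0.913, 0.588 and 2.04 FPKM in control, a log2 difference of 1.87 ± 0.42 (limma adjusted p = 0.0096); with a pseudocount of 0.1 this call was lost (adjusted p = 0.084). In none of these 4 genes did the OTA and control libraries overlap. HIST1H2AK, a further H2A gene of this block named after its values were seen, had 7.19, 16.4 and 4.34 FPKM with OTA and 0.831, 2.14 and 0.926 FPKM in control and was not called, with a log2 difference of 2.03 ± 0.70 (limma adjusted p = 0.0655).

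**Figure D2:**
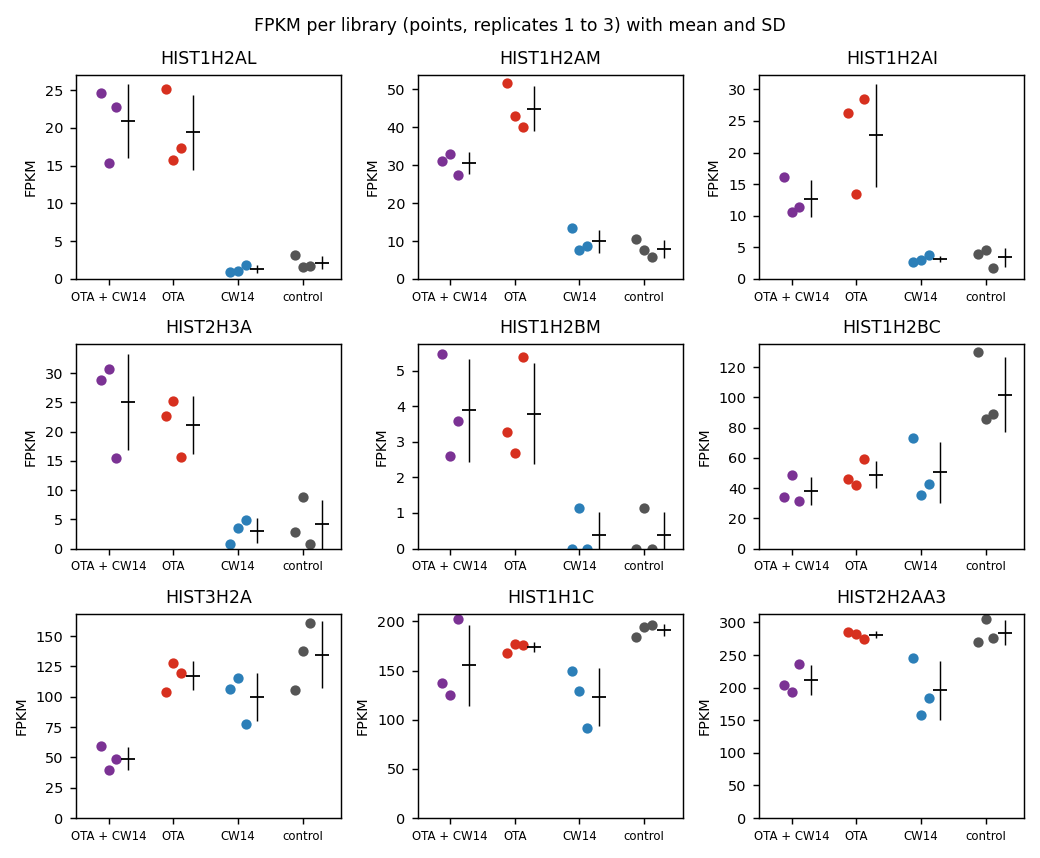
FPKM of 9 members in each library (vertical axes start at 0), with points for replicates 1 to 3 and a bar for mean and SD at the right of each group, ordered OTA + CW14, OTA, CW14, control. The first 5 genes are high in both OTA groups and low in CW14 and control. The mean of HIST1H2BC is lower in the OTA, CW14 and combined groups than in control. HIST3H2A is lowest in the combined group, and HIST1H1C and HIST2H2AA3 were called in no comparison.

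All 7 H2A genes of the second block together had summed levels of 134, 124 and 129 FPKM in the OTA libraries, against 29.7, 37.2 and 20.4 FPKM in the control libraries, a ratio of means of 4.43. The 6 H2A members of the first block had 154, 140 and 202 FPKM with OTA and 191, 185 and 168 FPKM in control, and none of the 4 tested was called. The first-block sum was mostly HIST1H2AE and HIST1H2AC. HIST1H2AE had 74.8, 55.9 and 82.8 FPKM with OTA and 98.8, 98.5 and 103.8 FPKM in control, below control in every OTA library and not called (log2 difference of -0.51 ± 0.19, limma adjusted p = 0.090). HIST1H2AC had 60.6, 59.9 and 78.5 FPKM with OTA and 78.3, 79.7 and 53.2 FPKM in control, so the groups overlapped. The other tested H2A genes of this block, named after their values were seen, had higher means with OTA. HIST1H2AD averaged 19.5 ± 9.4 FPKM with OTA and 7.96 ± 2.84 in control. Its deposited locus of 2512 bases is shared with HIST1H3D, so what was counted for it is uncertain. HIST1H2AB averaged 8.26 ± 2.52 FPKM with OTA and 2.82 ± 3.67 in control (SD, n = 3 each). The difference in response between the blocks was not tested.

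**Figure D3:**
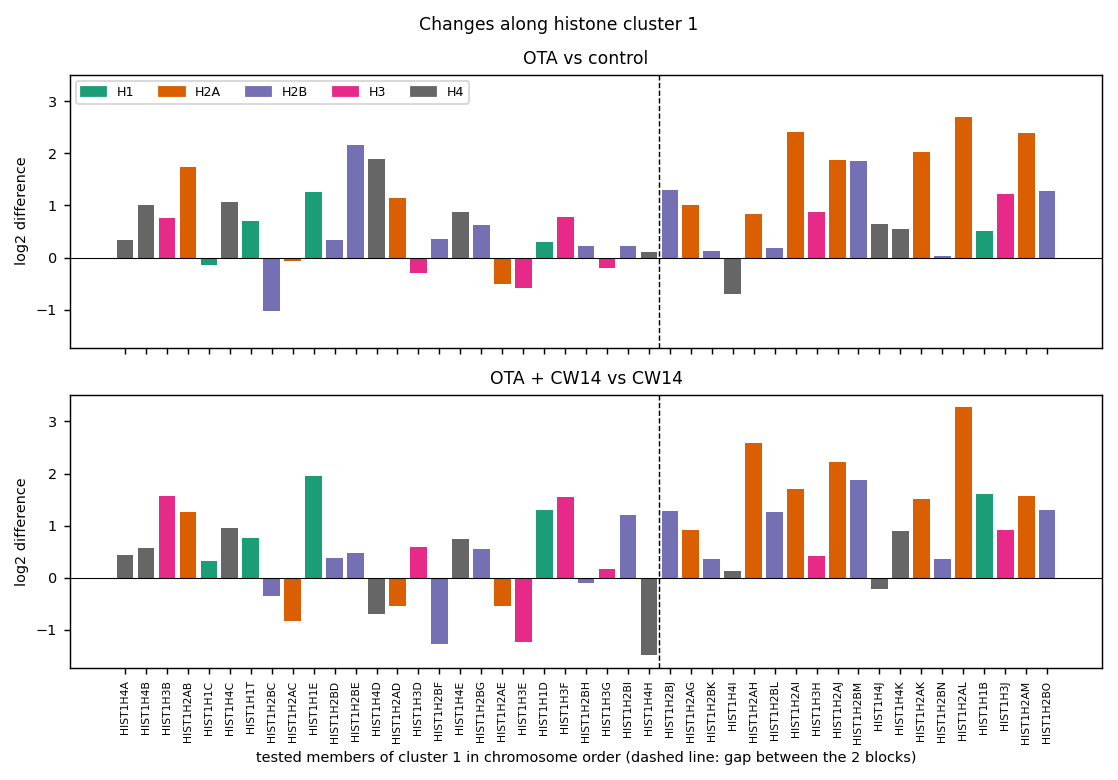
Log2 difference of FPKM + 1 (vertical axis) for the tested members of cluster 1 in their order along chromosome 6, coloured by class, for OTA against control (top) and OTA + CW14 against CW14 (bottom). To the right of the dashed line, which marks the gap between the blocks, all 7 H2A genes have positive values in both comparisons.

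Promoter sequence was compared because these members lie close together and moved by different amounts. RefSeq gives a promoter window, 250 bases before to 50 bases after the start, for 63 of the 71 members, on GRCh38.p14. Read on both strands, the pentamer CCAAT occurs in 84.1% of the 63 windows and in 34.6% of 35116 windows of all genes. TATAAA occurs in 65.1% of member windows and 11.5% of all windows. The octamer ATTTGCAT, a form bound by the factor POU2F1, occurs in 41.3% of member windows and 1.77% of all windows. Of the member windows, 11 of 15 H2A and 14 of 18 H2B windows hold it, with 1 of 11 H3 windows and 0 of the H1 and H4 windows. The windows are not all separate. The H3 window, that of HIST1H3D, is also the window of the H2A gene HIST1H2AD. Many neighbouring H2A and H2B windows overlap, such as those of HIST1H2AC and HIST1H2BC, so a match can count for both classes. A match is a description of these letters, and binding was not measured. The windows below are those of HIST1H2AL and HIST1H2AM, the members with the smallest p-values in the OTA comparison, and of HIST1H2BC, the member called lower, with matches to the 3 motifs on either strand in capitals. The HIST1H2AL window is chr6:27865067-27865366 (forward strand). The HIST1H2AM window is chr6:27893136-27893435 (reverse strand). The HIST1H2BC window is chr6:26123877-26124176 (reverse strand).
HIST1H2AL: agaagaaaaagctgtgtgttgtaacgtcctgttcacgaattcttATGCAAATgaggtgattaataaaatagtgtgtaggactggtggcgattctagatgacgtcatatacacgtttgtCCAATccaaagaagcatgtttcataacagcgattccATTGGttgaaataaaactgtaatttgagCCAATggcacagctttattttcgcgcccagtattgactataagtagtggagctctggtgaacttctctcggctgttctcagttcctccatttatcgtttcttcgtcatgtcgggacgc
HIST1H2AM: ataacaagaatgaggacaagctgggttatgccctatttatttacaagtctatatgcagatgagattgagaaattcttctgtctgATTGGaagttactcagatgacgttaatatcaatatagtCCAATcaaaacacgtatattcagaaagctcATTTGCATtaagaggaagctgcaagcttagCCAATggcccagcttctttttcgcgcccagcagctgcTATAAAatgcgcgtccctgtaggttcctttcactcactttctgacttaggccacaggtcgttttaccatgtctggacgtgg
HIST1H2BC: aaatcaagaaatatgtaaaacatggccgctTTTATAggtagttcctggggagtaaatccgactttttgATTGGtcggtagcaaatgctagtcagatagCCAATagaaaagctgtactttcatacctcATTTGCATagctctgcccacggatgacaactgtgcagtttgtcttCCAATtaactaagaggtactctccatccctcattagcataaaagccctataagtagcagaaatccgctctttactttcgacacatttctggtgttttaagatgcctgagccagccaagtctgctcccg
CCAAT and ATTTGCAT, on one strand or the other, occur in the windows of all 3, the members called higher and the member called lower.

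Among H2B genes, 4 were called higher with OTA and 1 lower. HIST1H2BJ, in the second block, had 28.8, 40.6 and 35.8 FPKM with OTA and 14.5, 12.7 and 13.6 FPKM in control, a log2 difference of 1.29 ± 0.29 (limma adjusted p = 0.0090). HIST2H2BF in cluster 2 had 36.3, 60.4 and 48.4 FPKM with OTA and 11.6, 11.1 and 13.1 FPKM in control, a log2 difference of 1.91 ± 0.50 (limma adjusted p = 0.020). Its deposited locus spans 29686 bases and is shared with FCGR1A, so what was counted for it is uncertain. HIST1H2BE rose at a low level, with 5.16, 8.48 and 7.29 FPKM under OTA and 0.930, 1.80 and 0 FPKM in control, a log2 difference of 2.16 ± 0.34 (limma adjusted p = 0.0010). HIST1H2BM, one of the 4 members that passed only through the OTA groups, had 3.27, 2.69 and 5.38 FPKM with OTA and 0, 1.14 and 0 FPKM in control. In a fit with no filter on low values its log2 difference was 1.85 ± 0.40 (limma adjusted p = 0.014). The one member called lower, HIST1H2BC, had 45.8, 41.8 and 59.1 FPKM with OTA and 130, 85.7 and 89.0 FPKM in control, with no overlap and a log2 difference of -1.03 ± 0.27 (limma adjusted p = 0.020). That call was lost without control replicate 1, OTA replicate 1 or OTA replicate 2, with an adjusted p of up to 0.084. A lower level of HIST1H2BC was not particular to OTA. It averaged 50.4 ± 19.9 FPKM with CW14 alone, 38.1 ± 9.3 in the combined group and 101.6 ± 24.8 in control (SD, n = 3 each). The difference between CW14 and control was not called. The HIST2H2BF call was lost without any 1 control library or without OTA replicate 2 or 3, with an adjusted p of up to 0.075.

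The low members rest on few fragments. For 7 members the values were whole multiples of 1 step within 0.12 of a fragment in every library, which gives fragments in units of that step. HIST1H2BE then had 9, 6 and 9 fragments in the OTA libraries and 1, 3 and 0 in the control libraries. HIST1H2BM had 6, 2 and 7 with OTA and 0, 2 and 0 in control. HIST1H2AK had 14, 13 and 6 with OTA and 1, 4 and 1 in control. HIST2H2AB, an H2A gene of cluster 2, had 4, 3 and 5 with OTA and 0, 2 and 0 in control. In FPKM, HIST2H2AB stood at 2.16, 3.99 and 3.81 with OTA and 0, 1.13 and 0 in control, a log2 difference of 1.72. HIST2H2AB is another of the 4 members that passed only through the OTA groups, and in a fit with no filter it was not called (limma adjusted p = 0.064). Its call with the filter was lost without control replicate 1 or 3 or any 1 OTA library, with an adjusted p of up to 0.12.

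In class H3, HIST2H3A of cluster 2 was called higher with OTA, at 22.7, 25.2 and 15.6 FPKM against 2.77, 8.87 and 0.769 FPKM in control (log2 difference of 2.43 ± 0.56, limma adjusted p = 0.011). Every 150-base window of its coding sequence also occurs in HIST2H3C, which has no row in the table, and part is shared with HIST2H3D. Summed with HIST2H3D, the level was 35.7, 34.2 and 22.2 FPKM with OTA and 6.13, 14.8 and 5.46 FPKM in control, with a log2 difference of 1.79 ± 0.46 (limma adjusted p = 0.020). In class H4, HIST1H4E was called higher, at 37.6, 29.1 and 30.0 FPKM with OTA and 16.6, 25.7 and 11.4 FPKM in control (log2 difference of 0.87 ± 0.28, limma adjusted p = 0.047). Its call was lost on leaving out any of 7 libraries (control replicate 1 or 3, CW14 replicate 1 or 3, or any OTA library), with an adjusted p of up to 0.20. HIST1H4C, the most abundant H4 gene, had 68.9, 60.9 and 82.2 FPKM with OTA and 27.2, 34.4 and 38.3 FPKM in control and was not called (log2 difference of 1.07 ± 0.42, limma adjusted p = 0.10), although the groups did not overlap. HIST1H4J averaged 21.3 ± 1.8 FPKM with OTA and 14.1 ± 6.2 in control, and its identical copy HIST1H4K 22.6 ± 3.4 and 15.5 ± 4.7 (SD, n = 3 each). Neither was called in any comparison, and the pair was not tested as a sum. Summed H4 levels were 239, 239 and 230 FPKM with OTA and 152, 143 and 107 FPKM in control. Among the linker histones, HIST1H1E was called higher, at 30.3, 30.0 and 16.5 FPKM with OTA and 7.96, 12.5 and 9.17 FPKM in control (log2 difference of 1.26 ± 0.38, limma adjusted p = 0.041). The call was lost on leaving out any control library, CW14 replicate 1, OTA replicate 1 or 2, or combined replicate 1, with an adjusted p of up to 0.13. HIST1H1C, at 168, 177 and 176 FPKM with OTA and 184, 194 and 196 FPKM in control, was not called (log2 difference of -0.14 ± 0.20, limma adjusted p = 0.67).

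By expression level, of the 10 members averaging 50 FPKM or more, none was called higher with OTA and 1 was called lower, with a median log2 difference of -0.04. Of 20 members between 10 and 50 FPKM, 8 were called higher and 0 lower (median 0.95), and of 28 members between 1 and 10 FPKM, 4 were called higher and 0 lower (median 0.81). The 10 members with a described polyadenylated transcript had summed levels of 1019, 1038 and 1075 FPKM with OTA and 1050, 1098 and 1086 FPKM in control. Within that list HIST1H2BJ was called higher and HIST1H2BC lower. The other 61 members had summed levels of 895, 847 and 855 FPKM with OTA and 527, 541 and 481 FPKM in control, a ratio of means of 1.68, and 11 of the 48 tested were called higher and 0 lower. Level and membership in the list overlap and cannot be told apart here. By annotated transcript, 4 of 23 tested members running past the stem-loop were called higher and 1 lower. The counts were 1 and 0 of 7 for those ending near it, and 7 and 0 of 28 for those with none in the transcript. Of all genes tested, 4.82% were called higher and 12.9% lower. The ratios of summed means, in the same order, were 1.13, 1.06 and 1.43. The labels describe an mRNA library kit and do not say how RNA was selected, which bears on how transcripts without a poly(A) tail are captured.

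**Figure D4:**
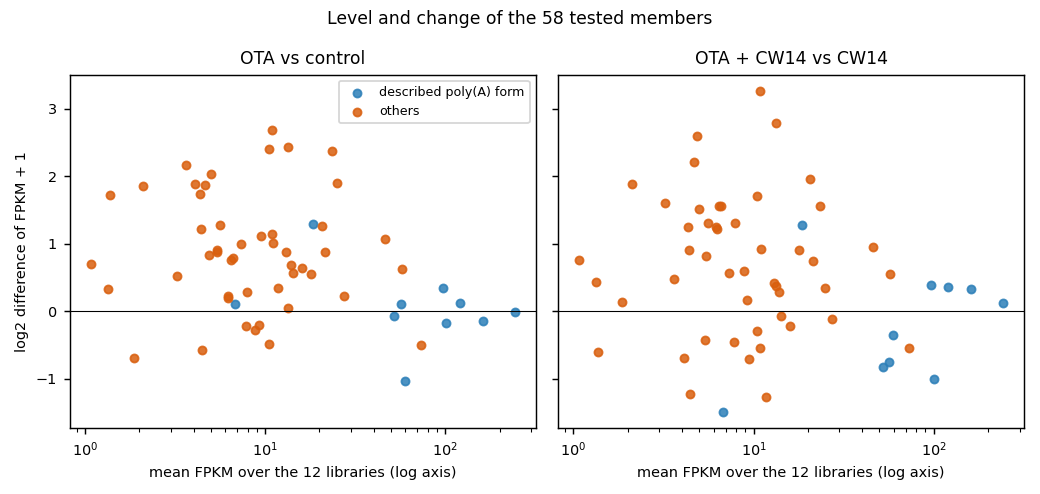
Mean FPKM over the 12 libraries (horizontal, log axis) against the log2 difference of FPKM + 1 (vertical) for the 58 tested members, for OTA against control (left) and OTA + CW14 against CW14 (right), with the 10 members that have a described polyadenylated form in blue and the others in orange. The 10 members at 50 FPKM or more have a median of -0.04 in OTA against control, and the largest positive values lie below 50 FPKM.

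In the presence of CW14, H2A genes of the second block were again higher with OTA than without it, together with several H1 genes. Between the combined group and CW14, 13 of 58 members were called higher and 3 lower, where 14.8% of all genes tested were called higher and 17.5% lower. The median log2 difference of the 58 was 0.46, against 0.02 over all genes. Without the 4 members that passed only through the OTA groups, 12 of 54 were called higher and 3 lower, with a median of 0.45. In 16 members all combined libraries lay above all CW14 libraries, with 19.9% of all genes tested doing so, and in 4 members all lay below, with 21.9% of all genes. This comparison shares no library with OTA against control. Of the genes called higher, 8 were called in both, which is 66.7% of the 12 in OTA against control and 61.5% of the 13 here: HIST1H1E, HIST1H2AI, HIST1H2AJ, HIST1H2AL, HIST1H2AM, HIST1H2BJ, HIST1H2BM and HIST2H3A. Without HIST1H2BM, HIST2H2AB and the other 2 members that passed only through the OTA groups, 7 were called in both, which is 70.0% of 10 and 58.3% of 12. Of all genes tested, 185 were called higher in both, which is 29.7% of the 623 in OTA against control and 9.6% of the 1919 here. The 2 log2 differences had the same sign in 42 of 58 members (72.4%) and in 65.1% of all genes tested. In 9 members (15.5%), and in 7.2% of all genes tested, the libraries with OTA lay above those without it in both comparisons with no overlap. The number of members called lower was 1 on leaving out any of 6 libraries (control replicate 1 or 2, CW14 replicate 1 or 3, or OTA replicate 1 or 3) and 7 without combined replicate 2. Of all genes, 1744 to 2115 were called lower in those 6 fits and 2729 without combined replicate 2, against 2260 with every library.

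On the log2(FPKM + 1) scale HIST1H2AL again had the largest difference, at 24.6, 15.3 and 22.7 FPKM in the combined libraries against 0.893, 1.02 and 1.87 FPKM in the CW14 libraries (log2 difference of 3.27 ± 0.26, limma adjusted p = 4.7e-06). With a pseudocount of 0.1 that order did not hold: HIST1H2BM differed by 4.05 and HIST1H2AL by 3.98, and HIST1H2AH, at 0 with CW14, was above both. HIST1H2AM had 31.1, 33.1 and 27.4 FPKM in the combined group and 13.4, 7.66 and 8.72 FPKM with CW14 (log2 difference of 1.56 ± 0.22, limma adjusted p = 0.00038). HIST2H3A had 28.9, 30.7 and 15.6 FPKM in the combined group and 0.775, 3.56 and 4.86 FPKM with CW14 (log2 difference of 2.79 ± 0.56, limma adjusted p = 0.0036), and its sum with HIST2H3D differed by 2.28 ± 0.46 (limma adjusted p = 0.0037). In these 3 genes the combined and CW14 libraries did not overlap. HIST1H2AH had 3.54, 4.51 and 7.78 FPKM in the combined group and was listed at 0 in all 3 CW14 libraries, so no fold is given (limma adjusted p = 0.00017). In control it averaged 4.91 FPKM, against 5.27 FPKM in the combined group. HIST1H2AJ and HIST1H2AI rose by 2.21 ± 0.42 and 1.70 ± 0.31 on the log2 scale (limma adjusted p = 0.0026 and 0.0019). HIST1H2BM had 5.46, 2.61 and 3.58 FPKM in the combined group and 0, 1.13 and 0 FPKM with CW14, and with no filter on low values its log2 difference was 1.88 ± 0.40 (limma adjusted p = 0.0092). Summed over the 7 H2A genes of the second block, levels were 105, 95.1 and 96.7 FPKM in the combined group and 25.4, 25.4 and 22.5 FPKM with CW14, a ratio of means of 4.06. HIST1H2AG, in the same block and named after its values were seen, was called at a log2 difference of 0.92 ± 0.33 (limma adjusted p = 0.048), which was lost on leaving out any of 9 libraries, with an adjusted p of up to 0.15; these were control replicate 3, OTA replicates 2 and 3, and every CW14 and combined library.

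The linker histone genes HIST1H1E, HIST1H1B and HIST1H1D rose in the combined group against CW14. HIST1H1E had 30.6, 52.4 and 28.9 FPKM in the combined libraries and 8.14, 4.46 and 16.2 FPKM with CW14 (log2 difference of 1.96 ± 0.38, limma adjusted p = 0.0030). HIST1H1D, named after its values were seen, had 12.0, 8.86 and 12.5 FPKM in the combined libraries and 2.75, 4.52 and 4.52 FPKM with CW14 (log2 difference of 1.30 ± 0.28, limma adjusted p = 0.0048). HIST1H1B had 9.05, 4.07 and 3.58 FPKM in the combined libraries and 3.07, 0.442 and 0.402 FPKM with CW14 (log2 difference of 1.61 ± 0.44, limma adjusted p = 0.016), or 17, 8 and 5 fragments against 8, 1 and 1. The HIST1H1B call was lost without CW14 replicate 2 or 3 or combined replicate 1, with an adjusted p of up to 0.069. HIST1H3F, an H3 gene of the first block, had 13.8, 9.58 and 8.24 FPKM in the combined group and 0.908, 4.16 and 4.74 FPKM with CW14 (log2 difference of 1.56 ± 0.45, limma adjusted p = 0.021), a call lost without CW14 replicate 1 or combined replicate 1, with an adjusted p of up to 0.079. HIST1H2BJ rose by 1.28 ± 0.29 (limma adjusted p = 0.0062), a call lost when only the compared groups were fitted (adjusted p = 0.0506).

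The 3 members called lower in the combined group against CW14 were abundant ones. HIST3H2A, the H2A gene of cluster 3 (hg19 chr1:228645063-228645560), had 59.0, 39.4 and 48.6 FPKM in the combined libraries and 106.6, 115.6 and 77.6 FPKM with CW14 (log2 difference of -1.01 ± 0.20, limma adjusted p = 0.0033), with no overlap. HIST2H2BE had 45.9, 54.9 and 20.2 FPKM in the combined libraries and 66.4, 62.4 and 62.4 FPKM with CW14 (log2 difference of -0.76 ± 0.27, limma adjusted p = 0.0499). Its call was lost on leaving out any 1 control, CW14 or OTA library, with an adjusted p of up to 0.12. HIST1H2AE had 45.4, 54.5 and 45.0 FPKM in the combined libraries and 95.3, 58.4 and 63.2 FPKM with CW14 (log2 difference of -0.54 ± 0.19, limma adjusted p = 0.047). That call was lost on leaving out any of 9 libraries, with an adjusted p of up to 0.18; the exceptions were CW14 replicate 2, OTA replicate 2 and combined replicate 2.

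CW14 alone was followed by few calls among histone genes, as among all genes. In CW14 against control, limma called 0 members higher and 1 lower, with 0.217% of all genes tested called higher and 0.147% lower, and at an unadjusted p under 0.05 there were 1 higher and 10 lower. The median log2 difference of the 58 members was -0.39, against -0.02 over all genes tested. In 2 members all CW14 libraries lay above all control libraries, where 9.66% of all genes did so, and in 10 members all lay below, where 10.9% of all genes did so. The member called was HIST1H2AH, listed at 0 in all 3 CW14 libraries and at 5.34, 6.86 and 2.55 FPKM in the control libraries (limma adjusted p = 0.0087). The call was lost without control replicate 1 or CW14 replicate 3, with an adjusted p of up to 0.061. Summed over all 71 members, levels were 1429, 1074 and 1020 FPKM with CW14 and 1576, 1639 and 1568 FPKM in control.

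**Figure D5:**
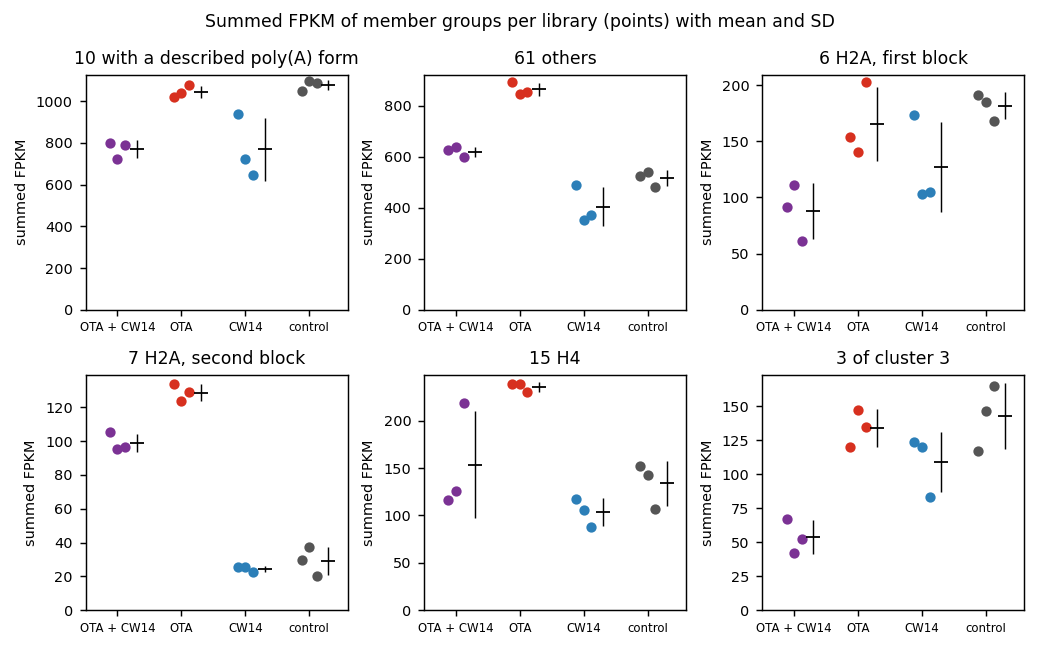
Summed FPKM of 6 groups of members in each library (vertical axes start at 0), with points for replicates 1 to 3 and a bar for mean and SD, ordered OTA + CW14, OTA, CW14, control. The 61 members outside the list of described polyadenylated forms, and the 7 H2A genes of the second block in particular, are high in both OTA groups, and the 3 members of cluster 3 are lowest in the combined group.

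Adding CW14 to OTA lowered 9 histone genes, most of them H4 genes and members of cluster 3. Relative to OTA alone, limma called 0 members higher and 9 lower, where 7.79% of all genes tested were called higher and 8.22% lower, and at an unadjusted p under 0.05 there were 0 higher and 20 lower. The median log2 difference of the 58 was -0.51, against 0.03 over all genes tested, and without the 4 members that passed only through the OTA groups 8 of 54 were called lower. In 0 members did all combined libraries lie above all OTA libraries, with 17.8% of all genes doing so, and in 19 all lay below, with 16.6% of all genes. Of the 10 members with a described polyadenylated transcript, 4 were called lower, and of the other 48 tested, 5. The count of 9 became 2 on leaving out any 1 OTA library, 4 without control replicate 2 and 5 without combined replicate 1. Over all genes the 1063 called lower became 485, 351 and 429 without OTA replicates 1, 2 and 3, 779 without control replicate 2 and 900 without combined replicate 1.

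Both tested members of cluster 3 were called lower in the combined group than in the OTA group. HIST3H2A had 59.0, 39.4 and 48.6 FPKM in the combined libraries and 104, 128 and 120 FPKM with OTA (log2 difference of -1.26 ± 0.20, limma adjusted p = 0.0042). HIST3H2BB, the H2B gene beside it, had 7.97, 2.54 and 3.49 FPKM in the combined libraries and 15.9, 19.6 and 15.0 FPKM with OTA (log2 difference of -1.76 ± 0.44, limma adjusted p = 0.023), a call lost without any 1 OTA library, with an adjusted p of up to 0.081. In both genes the groups did not overlap. HIST3H3, the testis-expressed H3 gene of the cluster, was not tested. It was listed at 0 in every combined and OTA library and reached 1.71 FPKM at most, in CW14 replicate 1. HIST4H4, the only member of cluster 4, had 6.43, 1.54 and 6.30 FPKM in the combined libraries and 5.14, 4.75 and 10.9 FPKM with OTA and was called in no comparison.

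Of 12 tested H4 genes, 4 were called lower in the combined group than in the OTA group, and all 12 had negative log2 differences. Negative differences were not particular to H4: 49 of the 58 members had them. By class these were 13 of 15 H2A, 15 of 17 H2B, 7 of 9 H3 and 2 of 5 H1 genes. The 12 H4 genes include the identical pairs HIST1H4J with HIST1H4K and HIST2H4A with HIST2H4B, so their values are not all independent. HIST1H4B had 2.24, 4.29 and 2.89 FPKM in the combined libraries and 15.2, 28.8 and 7.63 FPKM with OTA (log2 difference of -1.99 ± 0.37, limma adjusted p = 0.0073), and the call held whichever library was left out but was lost when only the compared groups were fitted (adjusted p = 0.072). HIST1H4H had 2.00, 5.74 and 0 FPKM in the combined libraries and 8.78, 7.90 and 10.2 FPKM with OTA (log2 difference of -1.86 ± 0.54, limma adjusted p = 0.036). HIST1H4D was listed at 0, 6.01 and 0 FPKM in the combined libraries and stood at 8.35, 10.3 and 9.50 FPKM with OTA (log2 difference of -2.44 ± 0.75, limma adjusted p = 0.046). Both of these calls were lost on leaving out any of 9 libraries, among them every OTA library and combined replicates 1 and 3, with an adjusted p of up to 0.11 for HIST1H4H and 0.13 for HIST1H4D; the other 4 were every CW14 library and control replicate 2 for HIST1H4H, and every control library and CW14 replicate 3 for HIST1H4D. HIST2H4B was called lower on its own row (log2 difference of -1.16 ± 0.34, limma adjusted p = 0.038), a call lost without control replicate 2, CW14 replicate 2, any OTA library or combined replicate 1, with an adjusted p of up to 0.13. Its coding sequence is that of HIST2H4A, and the 2 rows held equal values in 3 libraries. Summed with HIST2H4A, it had 26.3, 20.1 and 20.6 FPKM in the combined libraries and 44.8, 50.2 and 30.8 FPKM with OTA and was not called (log2 difference of -0.86 ± 0.31, limma adjusted p = 0.079). Summed H4 levels were 116, 125 and 219 FPKM in the combined libraries and 239, 239 and 230 FPKM with OTA. The high sum was that of combined replicate 3, where HIST1H4C stood at 101.5 FPKM, against 34.5 and 27.8 FPKM in combined replicates 1 and 2.

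The remaining members called lower in the combined group than with OTA were HIST1H2AC, HIST1H2BJ and HIST2H2AB. HIST1H2AC had 35.72, 35.95 and 9.984 FPKM in the combined libraries and 60.6, 59.9 and 78.5 FPKM with OTA (log2 difference of -1.44 ± 0.41, limma adjusted p = 0.036), a call lost without control replicate 2 or any 1 OTA library, with an adjusted p of up to 0.11. HIST1H2BJ had 17.7, 20.3 and 15.6 FPKM in the combined libraries and 28.8, 40.6 and 35.8 FPKM with OTA (log2 difference of -0.93 ± 0.29, limma adjusted p = 0.047), a call lost on leaving out any of 9 libraries (all but CW14 replicates 2 and 3 and combined replicate 2), with an adjusted p of up to 0.15. HIST2H2AB, which passed the filter only through the OTA groups, had 1, 0 and 0 fragments in the combined libraries and 4, 3 and 5 with OTA. It was not called in a fit with no filter (limma adjusted p = 0.076), and with the filter its call was lost on leaving out any of 8 libraries (control replicate 1 or 3, CW14 replicate 2, combined replicate 2 or 3, or any OTA library), with an adjusted p of up to 0.13. HIST1H2AL, which had the largest log2 difference of FPKM + 1 in OTA against control, had 24.6, 15.3 and 22.7 FPKM in the combined libraries and 25.1, 15.7 and 17.3 FPKM with OTA, so the groups overlapped (log2 difference of 0.10 ± 0.26, limma adjusted p = 0.81).

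Whether the OTA difference itself changed with CW14 was tested as an interaction. Limma called 0 members higher and 0 lower, where 1.85% of all genes tested were called higher and 1.49% lower, and at an unadjusted p under 0.05 there were 2 higher and 8 lower. The lowest adjusted p among members was 0.055, for HIST1H2AH, the gene listed at 0 in all CW14 libraries. Leaving out combined replicate 2 gave 1 member called higher and 5 lower, leaving out combined replicate 3 gave 1 higher, and leaving out CW14 replicate 3 gave 1 lower. Over all genes these fits called 814 higher and 768 lower, 776 and 806, and 140 and 114, in that order, against 239 and 192 with every library. The calls that stand in only 1 of the 2 OTA comparisons are therefore not shown to differ between them.

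Genes that act on histone RNA and protein were examined as lists, whose counts are to be read against all genes tested. Of those, 4.82% were called higher and 12.9% lower in OTA against control, 14.8% and 17.5% in the combined group against CW14, and 7.79% and 8.22% in the combined group against OTA. The lists were counted only in the fit whose spread is shared by all 4 groups. With the compared groups alone, calls over all genes fell from 1007 and 1063 to 55 and 66 in the combined group against OTA. They fell from 1919 and 2260 to 568 and 1088 against CW14, and rose from 623 and 1665 to 2148 and 2554 in OTA against control. Of 9 genes of histone gene transcription, 0 were called higher and 3 lower in OTA against control, and the same counts held in the combined group against CW14. NPAT, the coactivator of histone genes, fell in both: it had 6.34 ± 0.60 FPKM with OTA and 12.4 ± 1.0 FPKM in control (SD, n = 3 each), a log2 difference of -0.86 ± 0.19 (SE; limma adjusted p = 0.0080). NPAT had 6.51 ± 2.06 FPKM in the combined group, against 12.9 ± 0.4 FPKM with CW14 (log2 difference of -0.93 ± 0.19, limma adjusted p = 0.0036). CCNE2, a cyclin of the entry into S phase, fell by 0.83 and 0.81 on the log2 scale (limma adjusted p = 0.021 and 0.015). COIL, the scaffold of Cajal bodies, fell with OTA against control (log2 difference of -0.68 ± 0.15, limma adjusted p = 0.010), and POU2F1, the octamer-binding factor, fell in the combined group against CW14 (log2 difference of -0.41 ± 0.15, limma adjusted p = 0.049). None of the 9 was called in CW14 against control, and COIL and CASP8AP2 were called higher in the combined group than with OTA.

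Of 18 tested genes of histone pre-mRNA 3′ end processing, 0 were called higher and 1, CDK9, lower in OTA against control. In the combined group against CW14, 5 were called higher and 0 lower, with SYMPK, CSTF2 and SNRPB at the largest differences (0.69, 0.68 and 0.68 on the log2 scale, limma adjusted p = 0.019, 0.040 and 0.0499). SNRPB stood at 164.5 FPKM in combined replicate 3 against 75.3 and 72.5 FPKM in the other combined libraries. In the combined group against OTA, 2 were called higher and 1 lower, and the one lower was LSM11, a subunit of the U7 particle (log2 difference of -0.66 ± 0.20, limma adjusted p = 0.048). SLBP, named here after its values were seen, had 48.1 ± 12.7 FPKM in the combined group, 33.3 ± 4.3 with OTA, 36.9 ± 2.5 with CW14 and 47.0 ± 5.5 in control (SD, n = 3 each) and was called in no comparison. Of 11 genes of histone mRNA translation and decay, 0 were called higher and 2 lower in OTA against control, and 1 higher and 5 lower in the combined group against CW14; the first of these counts is near the share over all genes. ERI1, an exonuclease that trims the histone stem-loop end, fell in both, at 7.30 ± 1.00 FPKM with OTA against 13.8 ± 1.3 FPKM in control (log2 difference of -0.84 ± 0.19, limma adjusted p = 0.0092). ERI1 had 5.67 ± 1.61 FPKM in the combined group, against 15.9 ± 1.2 FPKM with CW14 (log2 difference of -1.37 ± 0.19, limma adjusted p = 0.00030). ZCCHC6, a uridylyl transferase, also fell in both (log2 differences of -0.68 and -0.81, limma adjusted p = 0.048 and 0.015).

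Of 28 S phase genes tested, 2 were called higher and 4 lower in OTA against control, 18 higher and 0 lower in the combined group against CW14, 0 in either direction in CW14 against control, and 18 higher and 1 lower in the combined group against OTA. The counts in OTA against control are near the shares over all genes. For the interaction, 7 were called higher and 0 lower, with 1.85% and 1.49% of all genes. For the clustered genes the counts in the combined group against OTA were 0 higher and 9 lower. FEN1, a flap endonuclease of DNA replication, had 67.7 ± 4.7 FPKM in the combined group and 30.4 ± 1.7 FPKM with OTA (SD, n = 3 each; log2 difference of 1.13 ± 0.13, limma adjusted p = 0.0019). MCM5, a subunit of the replicative helicase, had 5.26, 5.52 and 14.3 FPKM in the combined libraries and 3.50, 2.63 and 3.20 FPKM with OTA, with combined replicate 3 far above the others (log2 difference of 1.06 ± 0.31, limma adjusted p = 0.038). GINS3, a replisome subunit, had 10.5 ± 2.9 FPKM in the combined group and 4.17 ± 0.70 FPKM with OTA (log2 difference of 1.13 ± 0.21, limma adjusted p = 0.0072). The cell-cycle phosphatase CDC25A fell in OTA against control, with 2.97 ± 0.42 FPKM against 9.37 ± 1.48 FPKM (log2 difference of -1.38 ± 0.17, limma adjusted p = 0.00016), and CDC6, which loads the helicase, fell by 1.12 on the log2 scale (limma adjusted p = 0.00067).

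Of 21 histone chaperones, 2 were called higher and 1 lower in OTA against control, 10 higher and 1 lower in the combined group against CW14, and 6 higher and 0 lower in the combined group against OTA. ASF1B, which carries H3 and H4 to chromatin assembly, had 54.7 ± 4.9 FPKM in the combined group, 39.6 ± 2.3 with OTA, 32.0 ± 1.0 with CW14 and 37.8 ± 2.6 in control (SD, n = 3 each), and its interaction was called (0.69 ± 0.16 on the log2 scale, limma adjusted p = 0.046). HJURP, the chaperone of the centromeric histone CENPA, fell in both OTA comparisons, by 0.88 without and 1.01 with CW14 on the log2 scale (limma adjusted p = 0.0091 and 0.0029). CENPA fell likewise, by 0.68 and 1.14 (limma adjusted p = 0.031 and 0.0013). Of 11 tested replication-independent histone variants, 1 was called higher and 4 lower in OTA against control, and 3 higher and 3 lower in the combined group against CW14. H2AFX, the variant phosphorylated at DNA breaks, had 112 ± 5 FPKM with OTA and 223 ± 8 FPKM in control (log2 difference of -0.98 ± 0.13, limma adjusted p = 0.00028). H2AFX had 221 ± 27 FPKM in the combined group, against 139 ± 18 FPKM with CW14 (log2 difference of 0.67 ± 0.13, limma adjusted p = 0.0028), and its interaction was called (1.65 ± 0.18, limma adjusted p = 0.0065). H3F3B, which encodes the replacement variant of H3, fell by 0.57 and 0.59 on the log2 scale (limma adjusted p = 0.0021 and 0.0013).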

How the data were processed

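RNA of 12 Caco-2 libraries, 3 in each of 4 groups taken from the sample titles, was read as 150-base pairs, per the labels' protocols. The deposited values are FPKM per gene on hg19. The submitters' processing notes name Cuffdiff, Cuffnorm, Cufflinks 2.2.1, TopHat2 2.0.13 and cutadapt 1.10 without saying what each did, and strandedness is not given in the sources used here. FPKM divides by length and library total, so a large change in abundant genes moves all others.

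The members, the lists and the tests were chosen with earlier results of these data known. limma 3.58.1 in R 4.3.3 was fitted to log2(FPKM + 1) of all 12 libraries and all 12928 genes averaging at least 1 FPKM, with group as the only term and a trend in the prior variance, with Benjamini-Hochberg adjustment across all of them. A member was named if it was among the 2 most abundant of its class, among the 10 largest called differences of a comparison and direction, a near-identical copy, or in cluster 3 or 4, and any other named member was chosen after its values were seen. From each list up to 3 called genes a comparison were named, and any other likewise after its values were seen. The fit was tested on simulated data. Alternatives were another pseudocount, other filters, median centring, quantile normalization, fits of the compared groups only, a replicate block, array weights, summed copies and each library left out. The copies summed were HIST2H3A with HIST2H3D and HIST2H4A with HIST2H4B, and no other pair was tested as a sum. Sequences were read with Python 3.11.15 from GENCODE release 29 and RefSeq (GRCh38.p14). Proteins were not used here.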

Additional observations from a re-analysis of the deposited data

Results flagged for a closer look

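For HIST2H2BE, an H2B gene of cluster 2, the libraries with CW14 lay below those without it in the presence of OTA and above them in its absence. With OTA present, the combined libraries had 45.9, 54.9 and 20.2 FPKM, against 68.9, 66.5 and 56.4 FPKM with OTA alone, all lower. Without OTA, the CW14 libraries had 66.4, 62.4 and 62.4 FPKM, against 57.85, 60.99 and 57.91 FPKM in control, all higher. The difference between these effects was -0.87 ± 0.38 on the log2 scale (SE), and neither the 2 CW14 comparisons (limma adjusted p = 0.076 and 0.99) nor the interaction (limma adjusted p = 0.19) passed the threshold.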

How the results depend on the processing

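No called difference changed sign under any alternative, and of 39 calls 18 held in all of them. In OTA against control, where 12 members were called higher and 1 lower, fitting only the compared groups gave 24 higher and 2 lower. Array weights gave 25 and 2, and leaving out 1 library gave 8 to 19 higher and 0 to 2 lower. Calls over all genes moved as well, from 623 higher and 1665 lower. They became 2148 and 2554 in the compared groups only and 2493 and 2924 with array weights. In the combined group against CW14 the 3 members called lower became 1 with no filter, with the filter at 0.1 FPKM, after median centring and in the compared groups only. With array weights they became 5, and leaving out 1 library gave 11 to 17 higher and 1 to 7 lower. Of all genes 2260 were called lower before these changes. That number was 2132 with no filter, 2247 with the filter at 0.1 FPKM, 2089 after median centring, 1088 in the compared groups only and 2844 with array weights. In CW14 against control the 1 called lower became 2 in the compared groups only and 2 with array weights, with 0 to 1 on leaving out 1 library. Over all genes the 19 called lower became 33 in the compared groups only and 106 with array weights. In the combined group against OTA the 9 called lower became 5 with a pseudocount of 0.1, 3 with no filter, 1 in the compared groups only and 19 with array weights, and 2 to 13 on leaving out 1 library. Over all genes the 1063 called lower became 1053, 858, 66 and 2261 under the first 4 of these, in that order. For the interaction, a pseudocount of 0.1 gave 1 called higher and array weights gave 2 higher and 7 lower, against 0 and 0. Leaving out 1 library gave 0 to 1 higher and 0 to 5 lower, and the fit of compared groups only was not run for it. Over all genes the 239 higher and 192 lower became 212 and 156 with a pseudocount of 0.1, and 1579 and 1503 with array weights. The causes were not tested. Array weights were first estimated by REML, limma's default, which did not reach its convergence tolerance. The gene-by-gene estimate used above was adopted after the REML counts had been seen. Under REML, 27 were called higher and 2 lower in OTA against control, 30 and 9 in the combined group against CW14, 4 lower in CW14 against control, 4 and 28 in the combined group against OTA, and 7 and 10 for the interaction. Over all genes REML gave 2781 higher and 3083 lower, 3978 and 4013, 186 lower, 3906 and 3797, and 2649 and 2475, in the same order. With replicate number as a block, the counts of members higher and lower were 12 and 1 in OTA against control, 14 and 3 in the combined group against CW14, 0 and 1 in CW14 against control, 0 and 8 in the combined group against OTA, and 0 and 0 for the interaction. Over all genes the block gave 489 and 1543, 1768 and 2184, 26 and 17, 858 and 949, and 162 and 124, in the same order. Of the 12 called higher in OTA against control 10 were shared: HIST1H1E and HIST1H4E were not called with the block (adjusted p = 0.069 and 0.062), nor were HIST1H2AE in the combined group against CW14 (0.059) and HIST1H4D in the combined group against OTA (0.071). The block was tried because groups share replicate numbers. Same-numbered libraries did not deviate together (r of -0.15 to 0.15 over 18 pairs), so no pairing by number was detected. These correlations cannot show that libraries were not handled in numbered batches. Absolute depth is unknown, and low members rest on few fragments.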
